A study of Mus musculus with 15 samples.

Results

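Hearts of rosiglitazone-treated db/db mice, untreated db/db mice and db/+ mice were compared for 10 genes of cardiac calcium handling, chosen by gene symbol on the array: the ryanodine receptors Ryr1, Ryr2 and Ryr3, the pump Atp2a2, its inhibitors Pln and Sln, the calsequestrins Casq1 and Casq2, the exchanger Slc8a1 and the channel Cacna1c. Probes under 9 of these symbols were found among 27845 gene names on the array, and Cacna1c was not analysed here. The 9 genes had 29 probes, each described by itself, and 22 of them had enough heart signal to be tested. The db/db mice were homozygous for the leptin receptor mutation on the C57BL/KLS background (C57BL/KLS-leprdb/leprdb), a model of obesity and type 2 diabetes. The treated db/db mice received rosiglitazone, an agonist of the nuclear receptor PPARγ, mixed into normal chow, and the untreated db/db mice received none. The db/+ mice were heterozygous littermates (C57BL/KLS-leprdb/lepr+), so they carry 1 copy of the same mutation. Hearts were taken 4 months after treatment began, and RNA of 5 hearts a group was labelled with Cy5 and hybridised against Cy3-labelled Universal Mouse reference RNA. Values are log2 ratios of heart over reference. Because whole hearts were used, fewer cells of a type and less RNA per cell cannot be told apart.

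In heart muscle cells, calcium that enters through L-type channels opens ryanodine receptors, which release a much larger amount from the sarcoplasmic reticulum and start contraction. The pump encoded by Atp2a2 (SERCA2) returns calcium to this store, where calsequestrin holds it, and the sodium-calcium exchanger Slc8a1 carries the rest out of the cell. Ryr2 and Casq2 are the cardiac forms of the release channel and the buffer, Ryr1 and Casq1 are the main forms of skeletal muscle, and Ryr3 is expressed widely at low levels.

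The probes for the ryanodine receptors are shown because the results differ between receptors whose sequences resemble each other at the probe sites. Capitals mark the stretches in which the end of one probe aligns with the start of another: the last 20 bases of the Ryr3 probe with the first 20 of the Ryr2 probe (17 matches), and the last 18 bases of the Ryr2 probe with the first 18 of a Ryr1 probe (15 matches).
Ryr3 A_52_P261858: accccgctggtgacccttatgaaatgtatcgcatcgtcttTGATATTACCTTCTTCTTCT
Ryr2 A_51_P391655: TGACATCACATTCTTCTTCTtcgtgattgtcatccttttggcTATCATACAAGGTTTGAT
Ryr1 A_51_P416074: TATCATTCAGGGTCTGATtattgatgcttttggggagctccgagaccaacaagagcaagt
Ryr1 A_52_P391110: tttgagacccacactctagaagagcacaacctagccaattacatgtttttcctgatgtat
By the array's annotation (mouse build mm8, minus strand for all), the Ryr3 probe lies at chr2:112437400-112437459, the Ryr2 probe at chr13:11612266-11614737, and the Ryr1 probes at chr7:28713559-28714265 (A_51_P416074) and chr7:28712530-28713228 (A_52_P391110). The annotated spans of the Ryr2 probe (2472 bases) and the Ryr1 probes (707 and 699 bases) exceed the probes' length of 60 bases. No pair among the 29 probes shared a run of 15 or more bases.

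The arrays lay on 4 slides, none of which held both treated db/db and db/+ hearts. Treated replicates 3 and 4 differed less than any other pair of a group (median absolute deviation of the log2 heart signal 0.135, against 0.26 to 0.578) and were counted as 1 sample, leaving 14 samples. The median heart signal before normalization was 232 and 370 on the arrays of db/+ replicates 3 and 1 and 375 to 1300 on the other 13. The array at 375, untreated db/db replicate 2, was kept where those of db/+ replicates 3 and 1 were left out as dim. All 7 cardiomyocyte markers were above background on all arrays. Summed skeletal muscle markers, which bear on Ryr1 and Casq1, were 782 to 1230 ppm of an array's heart signal in treated db/db, 1070 to 1710 in untreated db/db and 636 to 1420 in db/+ hearts. Of the 14 skeletal muscle genes, 8 were above background on all arrays and Pvalb on none. The part of these markers in the results was not tested.

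Among the calcium handling genes, 2 release channels differed between db/db and db/+ hearts on the deposited ratios. Ryr3 was higher in both db/db groups and Ryr1 in the treated one, each on 2 of its probes. These calls did not hold under another background correction (normexp). They were also lost with slide as a fixed block, but slides largely followed the groups, so that setting cannot decide whether these genes differ. The Ryr1 probes entered the test only because they were above background in treated hearts. Ryr2, Atp2a2, Pln, Casq1, Casq2 and Slc8a1 did not pass the test in any comparison on the deposited ratios. With untreated db/db set against db/+ hearts, 2 of 22 tested probes were called higher and 0 lower (limma, adjusted p under 0.05), beside 7.76% of all tested probes called in either direction (4.37% higher). Both were Ryr3 probes, and they were also the 2 probes whose groups did not overlap (7.81% of all probes). At an unadjusted p under 0.05 there were 4, the other 2 being probes of Slc8a1, beside 25.5% of all probes. The median log2 difference was 0.22 over the 22 probes and 0.01 over all 27590 tested probes.

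In rosiglitazone-treated against untreated db/db hearts, 0 of the 22 probes were called by limma, as were 0% of all tested probes, whose smallest adjusted p was 0.083. At an unadjusted p under 0.05 there were 3, namely 2 probes of Ryr1 and 1 of Slc8a1, beside 8.78% of all probes. The groups did not overlap for 2 probes, 1 of Ryr1 and 1 of Atp2a2, beside 4.58% of all probes. The median difference was 0 over the 22 probes and -0.01 over all.

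In treated db/db against db/+ hearts, 4 of the 22 probes were called higher and 0 lower, beside 8.71% of all probes called in either direction (4.49% higher). The 4 probes were 2 of Ryr3 and 2 of Ryr1, and their groups did not overlap, as for 14.6% of all probes. The same 4 were the ones at an unadjusted p under 0.05, beside 26.8% of all probes. Both Ryr1 probes passed the filter on dim signals only through the treated group, so a difference was built into their selection. The median difference was 0.16 over the 22 probes and 0.01 over all. The comparisons share samples and are not independent of each other.

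**Figure D1:**
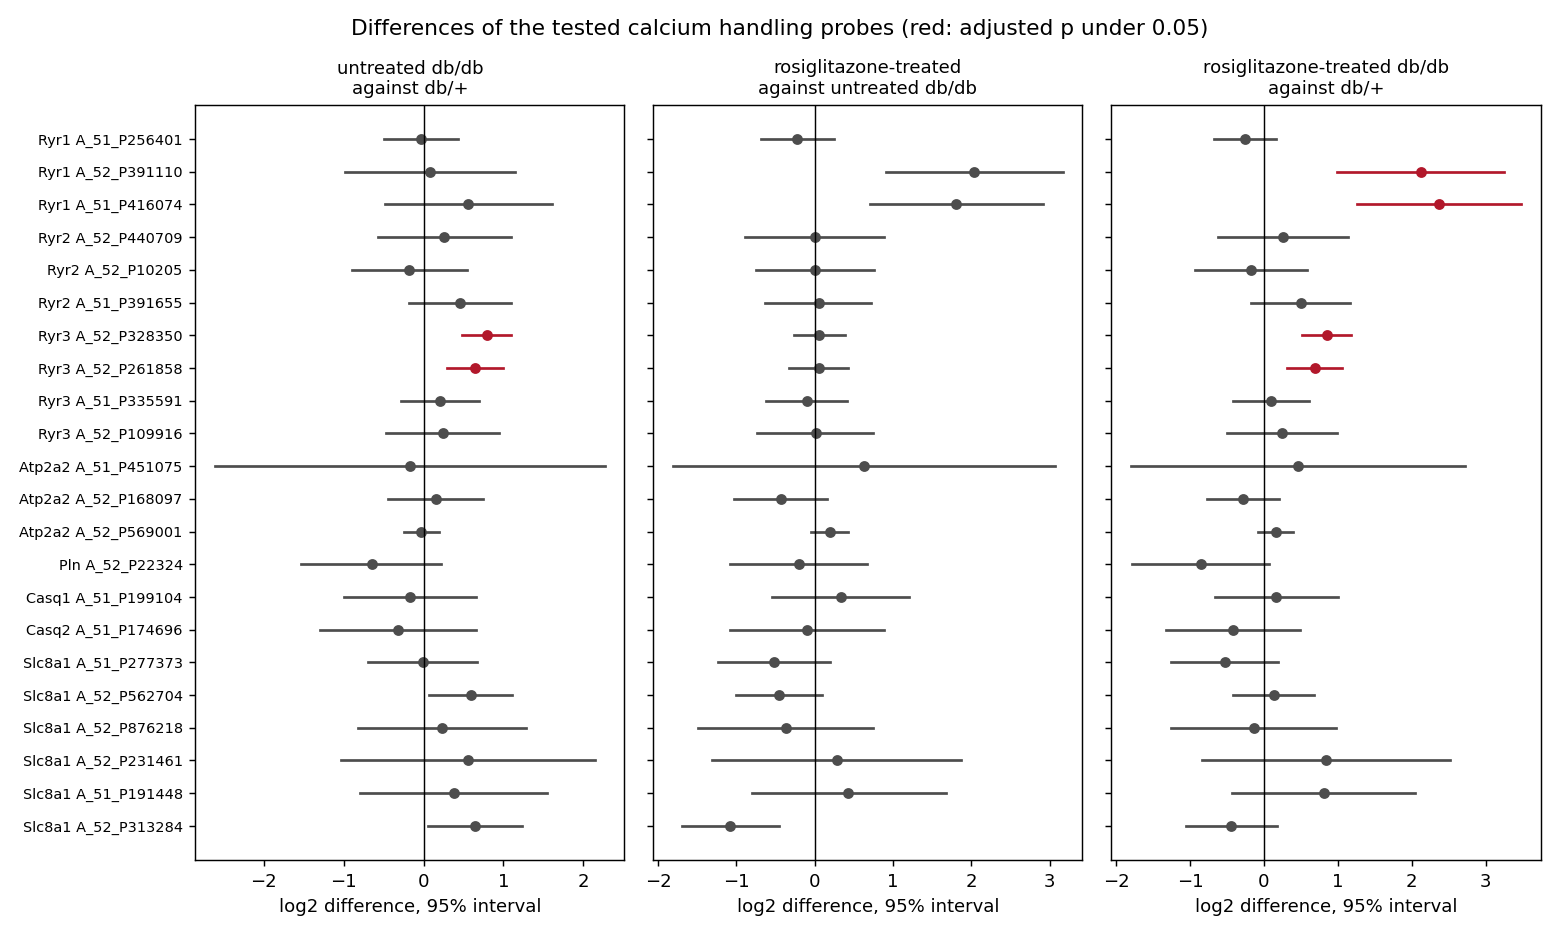
Log2 differences (x axis, points with 95% intervals from limma) of the 22 tested calcium handling probes, 1 probe a row, in the 3 comparisons, with called probes in red. The called probes are 2 of Ryr3 in the comparison of untreated db/db with db/+ hearts and 4, of Ryr3 and Ryr1, in that of treated db/db with db/+ hearts. No interval of a called probe includes 0, which follows from the call itself.

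Among the calcium release channels, Ryr3 was higher on the deposited ratios, though not under normexp, in db/db hearts with and without rosiglitazone. At probe A_52_P328350 (chr2:112432613-112432672, mm8), Ryr3 log2 ratios were -0.69, -1.35, -1.15 and -1.22 in treated db/db, -1.15, -1.49, -0.94, -1.28 and -0.96 in untreated db/db, and -2.13, -1.76, -2.16, -1.89 and -1.82 in db/+ hearts. Every db/db heart lay above every db/+ heart, and the db/db groups overlapped. The untreated db/db mean exceeded the db/+ mean by 0.79 (SE 0.14, 1.73-fold, limma adjusted p = 0.0062), but by 0 under normexp (adjusted p = 0.99), and by 0.45 under normexp without the 2 db/+ arrays with a dim heart channel (adjusted p = 0.095). The treated db/db mean exceeded the db/+ mean by 0.85 (SE 0.15, 1.8-fold, adjusted p = 0.0058), by 0.08 under normexp (adjusted p = 0.85) and by 0.54 under normexp without those 2 arrays (adjusted p = 0.069). With slide as a fixed block neither difference was called (0.64 for untreated, adjusted p = 0.64, and 0.73 for treated db/db, adjusted p = 0.98). Treated and untreated db/db hearts differed by 0.06 (95% interval -0.27 to 0.39). Summed blood markers (4 genes, all above background on all arrays) were 2770 to 5500 ppm in treated db/db, 3560 to 6690 in untreated db/db and 5520 to 19700 in db/+ hearts, and their part in the result was not tested.

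The probe of Ryr3 printed above, A_52_P261858, gave -0.52, -1.04, -0.94 and -1.01 in treated db/db, -1.02, -1.19, -0.80, -1.08 and -0.52 in untreated db/db, and -2.02, -1.48, -1.64, -1.22 and -1.45 in db/+ hearts. The gap was narrow: the lowest db/db heart, untreated replicate 2 at -1.19, was just above the highest db/+ heart, replicate 4 at -1.22. Untreated db/db exceeded db/+ hearts by 0.64 (SE 0.17, 1.56-fold, limma adjusted p = 0.033) and treated db/db exceeded db/+ hearts by 0.69 (SE 0.18, 1.61-fold, adjusted p = 0.029), while under normexp both differences turned negative (-0.11 for untreated and -0.04 for treated db/db, uncalled), and without the 2 dim db/+ arrays they were 0.14 and 0.22 (uncalled). Leaving out db/+ replicate 3 ended the call of the untreated difference (0.62, adjusted p = 0.065), as did leaving out untreated replicate 1, 3 or 5 (0.67, 0.61 and 0.54, adjusted p 0.054, 0.074 and 0.076). The treated difference was no longer called without db/+ replicate 3 (0.67, adjusted p = 0.054) or treated replicate 1 or 5 (0.57 and 0.73, adjusted p 0.092 and 0.057). Without treated replicate 2 it was 0.74 and only narrowly called (limma adjusted p rounding to 0.05). At A_52_P328350 both calls held without any 1 array.

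On the 2 db/+ arrays with the dimmest heart channel, replicates 1 and 3, the unnormalized heart signal of Ryr3 at A_52_P328350 was 134 and 116 over local backgrounds of 59 and 64, against 255 to 277 on the other db/+ arrays. Without these 2 arrays the untreated difference at A_52_P261858 was 0.46 (adjusted p = 0.13) and the treated one 0.51 (adjusted p = 0.1). Within the only slide that held both untreated db/db and db/+ hearts (3 against 1), the differences of Ryr3 were 0.64 at A_52_P328350 and 0.45 at A_52_P261858. Both Ryr3 probes varied little in the reference channel, with an SD of 0.13 (A_52_P328350) and 0.09 (A_52_P261858), against a median of 0.11 over 21457 probes above background in both channels of all arrays.

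The other 4 probes of Ryr3 were not called. A_51_P335591 differed by 0.20 in untreated db/db against db/+ hearts (95% interval -0.28 to 0.69) and by 0.10 in treated db/db against db/+ hearts (-0.42 to 0.61). A_52_P109916 was above background in 0 treated, 4 untreated and 0 db/+ hearts, and differed by 0.24 in both comparisons with db/+ hearts (adjusted p = 0.69 in each). A_51_P519354 and A_52_P521605 were above background on too few arrays to be tested, A_51_P519354 on 0 treated, 1 untreated and 3 db/+ arrays.

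Ryr1, the release channel of skeletal muscle, exceeded its db/+ level in treated db/db hearts at the 2 probes printed above, both close to background in the untreated db/db and db/+ hearts. At A_52_P391110, Ryr1 log2 ratios were 0.51, 0.52, -0.04 and 0.66 in treated db/db, -3.65, -1.63, -1.18, -0.32 and -1.35 in untreated db/db, and -0.63, -1.89, -2.27, -1.50 and -2.24 in db/+ hearts. Every treated heart lay above every other heart. The difference was 2.12 in treated db/db against db/+ hearts (SE 0.53, 4.35-fold, limma adjusted p = 0.026) and 2.04 in treated against untreated db/db hearts (SE 0.53, adjusted p = 0.41), of which the second did not pass the test.

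At A_51_P416074, Ryr1 log2 ratios were -0.01, -0.04, -0.48 and 0.58 in treated db/db, -3.56, -1.98, -1.12, -0.35 and -1.96 in untreated db/db, and -1.67, -3.08, -2.53, -1.73 and -2.79 in db/+ hearts. The treated hearts did not overlap with the db/+ hearts, and overlapped with the untreated ones through replicate 4 at -0.35. Treated db/db exceeded db/+ hearts by 2.37 (SE 0.52, limma adjusted p = 0.015), which stands for at least 2.4-fold, since no db/+ heart was above background there. Against untreated db/db hearts the difference was 1.81 (SE 0.52, adjusted p = 0.42). Untreated db/db differed from db/+ hearts by 0.56 (adjusted p = 0.50) at this probe and by 0.08 (adjusted p = 0.94) at A_52_P391110.

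Before normalization the heart signals of Ryr1 were low throughout: 102 to 162 in treated db/db, 73.4 to 112 in untreated db/db and 74.6 to 94.4 in db/+ hearts at A_52_P391110, with db/+ backgrounds of 63 to 71. Treated hearts were above background on 5 of 5 arrays at both probes, untreated hearts on 3 (A_52_P391110) and 2 (A_51_P416074), and db/+ hearts on 2 (A_52_P391110) and 0 (A_51_P416074). Under normexp the differences from db/+ hearts were 0.42 (A_52_P391110, adjusted p = 0.069) and 0.23 (A_51_P416074, adjusted p = 0.24), and without the 2 dim db/+ arrays 0.58 (called, adjusted p = 0.025) and 0.37 (adjusted p = 0.14). With slide as a fixed block they were 1.44 and 1.7, both uncalled. With no filter on dim probes the call at A_52_P391110 held, but only narrowly (limma adjusted p rounding to 0.05). The call at A_52_P391110 was lost without db/+ replicate 3 (1.98, adjusted p = 0.055) or treated replicate 1, 2 or 5 (2.09, 2.08 and 2.04, adjusted p 0.067, 0.064 and 0.072), and that at A_51_P416074 without treated replicate 5 (2.18, adjusted p = 0.051). Within the slide that held 2 treated and 2 untreated db/db hearts, treated hearts were higher by 1.35 (A_52_P391110) and 1.13 (A_51_P416074). Summed conduction system markers were 36.5 to 53.1 ppm in treated db/db, 24.4 to 43.7 in untreated db/db and 20.1 to 34 in db/+ hearts, and their part in the result was not tested. Of 13 tested probes of the skeletal muscle list, 1 was called lower and 0 higher in treated db/db against db/+ hearts, beside 8.71% of all probes in either direction. It was Mylpf, at -0.90 (limma adjusted p = 0.0031), against a median of -0.22 over the 13 probes, and its part in the result was not tested.

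The third probe of Ryr1, A_51_P256401, was above background on all arrays and did not follow the other 2. Its ratios were 0.54, 0.74, 0.63 and 0.44 in treated db/db, 0.58, 1.25 and 0.60 in the 3 untreated db/db hearts kept and 0.59, 0.72, 1.34 and 0.72 in the 4 db/+ hearts kept, after spots marked as outliers by the scanner software were dropped. Treated db/db differed from db/+ hearts by -0.26 (95% interval -0.68 to 0.17), treated from untreated db/db by -0.22 (-0.69 to 0.24), and untreated db/db from db/+ hearts by -0.03 (-0.49 to 0.43).

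**Figure D2:**
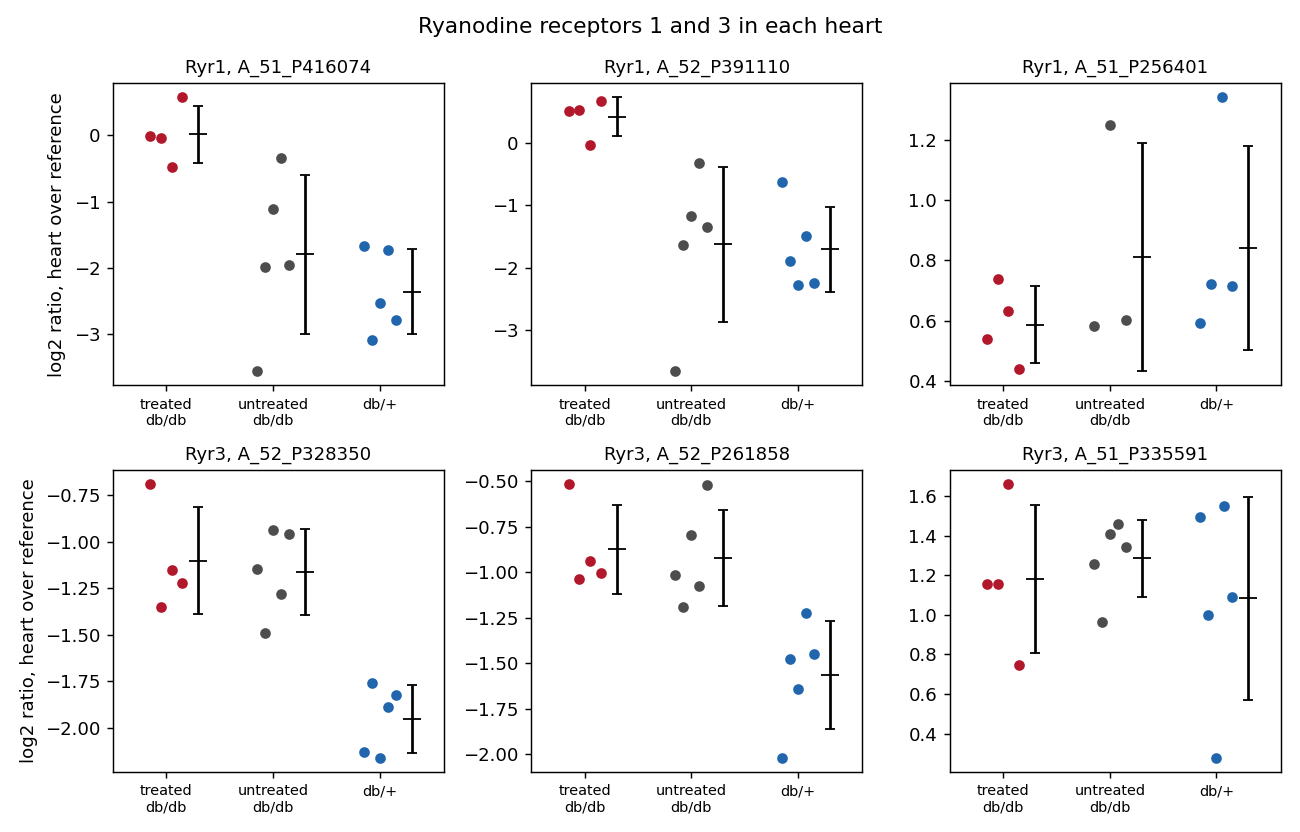
Log2 ratios of heart over reference (y axis, own scale in each panel) at Ryr1 A_51_P416074, A_52_P391110 and A_51_P256401 and Ryr3 A_52_P328350, A_52_P261858 and A_51_P335591, 1 dot a sample. Bars give mean ± SD of 4 treated db/db samples, 5 untreated db/db and 5 db/+ hearts (3 untreated and 4 db/+ hearts at A_51_P256401). At Ryr3 A_52_P328350 every db/db heart lies above all of the db/+ hearts (not called under normexp, at 0 for untreated db/db with all db/+ arrays and 0.45 without the 2 dim ones). At Ryr1 A_51_P416074 and A_52_P391110 the treated hearts lie above the db/+ hearts. At Ryr1 A_51_P256401 and Ryr3 A_51_P335591 the groups overlap and no difference was called.

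Ryr2, the release channel of the heart, had 4 probes, of which 3 were tested and none called. At A_51_P391655, printed above, Ryr2 ratios were 5.56, 5.29, 5.54 and 6.41 in treated db/db, 6.26, 6.10, 5.58, 5.57 and 4.76 in untreated db/db, and 5.44, 4.56, 5.55, 5.52 and 4.95 in db/+ hearts. The groups overlapped, with a difference of 0.45 in untreated db/db against db/+ hearts (95% interval -0.18 to 1.09) and 0.50 for treated db/db against db/+ hearts (-0.17 to 1.17). A_52_P440709 differed by 0.26 in both (untreated -0.57 to 1.09, treated -0.62 to 1.14), and A_52_P10205 by -0.18 (-0.89 to 0.54) in untreated db/db and -0.17 (-0.93 to 0.58) in treated db/db against db/+ hearts. The fourth probe, A_52_P102755, is annotated on the plus strand, opposite to the other 3, and was above background on 1 treated, 3 untreated and 0 db/+ arrays.

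The reference channel of the Ryr2 probes varied between arrays, although it holds the same RNA, with an SD of 0.78 to 0.93 at the tested probes. With the heart channel alone, scaled to each array's 75th percentile, treated db/db exceeded db/+ hearts by 1.31 at A_51_P391655 (limma adjusted p = 0.03) and by 1.05 at A_52_P10205 (adjusted p = 0.033). At A_52_P10205 the sign of the ratio was the opposite. Under normexp the difference between untreated db/db and db/+ hearts was called at A_52_P440709 (1.89, adjusted p = 0.046, and 0.77 without the 2 dim db/+ arrays, adjusted p = 0.038). The reference signal was above background on 1 of 15 arrays at A_51_P391655 and on 12 at A_52_P10205, so the ratios and intervals at A_51_P391655 rest on a reference level not measured above background. The mean reference signal as listed was -6.31 on the treated arrays, on the 75th-percentile log2 scale, against -7.12 on the db/+ arrays, at A_51_P391655, and -4.2 on the treated against -5.43 on the db/+ arrays at A_52_P10205.

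The pump Atp2a2 gave no called probe. The probe with the steadiest reference signal, A_52_P569001 (reference SD 0.08), had ratios of 1.80, 1.82, 1.87 and 1.89 in treated db/db, 1.53, 1.39, 1.83, 1.79 and 1.75 in untreated db/db, and 1.74, 1.72, 1.58, 1.51 and 1.89 in db/+ hearts. The groups overlapped, and the intervals were the narrowest of the Atp2a2 probes: -0.03 (-0.25 to 0.19) in untreated db/db against db/+ hearts, 0.19 (-0.05 to 0.42) in treated against untreated db/db hearts and 0.16 (-0.08 to 0.39) in treated db/db against db/+ hearts. A second probe of Atp2a2 is shown because spots on 4 arrays were dropped there.
Atp2a2 A_52_P168097: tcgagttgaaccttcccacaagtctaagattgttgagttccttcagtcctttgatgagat
At this probe (chr5:122721268-122721327, mm8) Atp2a2 ratios were 4.43, 4.22, 4.56 and 4.73 in treated db/db, and 4.94 and 4.90 in the 2 untreated db/db hearts kept. The db/+ hearts kept were at 4.67, 5.29, 4.18 and 4.93, a range that spans both db/db groups. Treated and untreated db/db did not overlap, and their difference of -0.43 (-1.03 to 0.16) was not called. A_51_P451075 had differences between -0.17 and 0.63 with intervals more than 4 log2 units wide. Its SD over all arrays, flagged spots included, was 1.38 in the reference channel and 0.31 in the heart channel. Over the spots kept, the reference SD was 0.24 in treated db/db, 1.68 in untreated db/db and 2.17 in db/+ samples. A_52_P1156808 was not tested.

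Of the pump's inhibitors, Pln (phospholamban) was uncalled and Sln (sarcolipin, mainly atrial in the heart) near background. At A_52_P22324 Pln ratios were 10.38, 10.22, 10.21 and 9.55 in treated db/db, 10.01, 11.37, 10.47, 10.17 and 9.43 in untreated db/db, and 10.84, 11.95, 9.95 and 11.03 in the 4 db/+ hearts kept. Pln means were lower in db/db than in db/+ hearts by an amount within the spread, with differences of -0.85 (95% interval -1.78 to 0.07, adjusted p = 0.22) for treated and -0.65 (-1.53 to 0.22, adjusted p = 0.33) for untreated db/db hearts. Over all arrays, with the flagged spot of db/+ replicate 2 included, the reference channel of this probe had an SD of 1.64. That was larger than for 99.9% of the 21457 probes above background, and the heart channel had an SD of 0.35. Without that spot, which is not in the ratios, the reference SD was 0.53 in treated db/db, 0.48 in untreated db/db and 0.52 in db/+ samples. Both Sln probes failed the filter, A_52_P413395 with 3 treated, 2 untreated and 1 db/+ arrays above background and A_51_P297498 with 0 treated, 1 untreated and 0 db/+ arrays. Atrial marker sums spread widely within groups, at 706 to 1200 ppm in treated db/db, 592 to 2190 in untreated db/db and 591 to 1950 in db/+ hearts.

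The calsequestrins, the store's calcium buffers, were each measured by 1 probe and not called. Casq2 ratios at A_51_P174696 were 4.02, 3.93, 4.24 and 4.45 in treated db/db, 3.21, 5.16 and 4.41 in the 3 untreated db/db hearts kept, and 4.39, 5.56, 4 and 4.37 in the 4 db/+ hearts kept. The groups overlapped, with differences of -0.42 (-1.33 to 0.49) in treated db/db and -0.32 (-1.30 to 0.66) in untreated db/db against db/+ hearts. Over all arrays, flagged spots included, the Casq2 reference channel had an SD of 1.14 and the heart channel 0.24. Over the spots kept, the reference SD was 0.28 in treated db/db, 1.02 in untreated db/db and 0.81 in db/+ samples. Casq1 ratios at A_51_P199104 were 1.96, 2.21, 2.53 and 2.59 in treated db/db, 0.90, 3.30, 1.94 and 1.80 in the 4 untreated db/db hearts kept, and 1.67, 2.24, 2.41, 1.73 and 2.72 in db/+ hearts. Casq1 differed by 0.17 (-0.66 to 1) in treated db/db and by -0.17 (-1 to 0.66) in untreated db/db against db/+ hearts. Its reference signal was above background on 3 of 15 arrays, so the size of these differences rests on a reference mostly not above background.

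Slc8a1, the sodium-calcium exchanger, had 7 probes, of which 6 were tested and none called on the ratios. A pair of them is shown, 1 for its difference between treated and untreated db/db hearts and 1 for its difference in the heart channel alone.
Slc8a1 A_52_P562704: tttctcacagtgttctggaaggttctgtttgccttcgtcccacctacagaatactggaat
Slc8a1 A_52_P313284: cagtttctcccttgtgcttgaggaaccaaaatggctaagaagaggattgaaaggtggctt
They lie at chr17:81316541-81316600 and chr17:81353188-81353247 (mm8, minus strand). At A_52_P313284 Slc8a1 ratios were 0.47, -0.18, -0.02 and 0.16 in treated db/db, 1.06, 1.43, 2.09, 0.34 and 1.03 in untreated db/db, and 0.16, 1.11, 0.35, 0.51 and 0.60 in db/+ hearts. The treated hearts were below the untreated ones except for replicate 4 at 0.34, with a difference of -1.08 (SE 0.29, adjusted p = 0.41). Within the slide that held both groups it was -0.54. The untreated db/db difference from db/+ hearts was 0.64 (SE 0.27, adjusted p = 0.16).

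At A_52_P562704 Slc8a1 ratios were 3.87, 4, 3.59 and 4.17 in treated db/db, 4.33, 5.25, 4.56, 3.97 and 3.72 in untreated db/db, and 3.45, 3.65, 4.01, 3.69 and 4.09 in db/+ hearts. The groups overlapped, with a difference of 0.59 in untreated db/db against db/+ hearts (SE 0.24, adjusted p = 0.15) and 0.13 for treated db/db against db/+ hearts (95% interval -0.42 to 0.68). With the heart channel alone the same probe differed by 1.06 (limma adjusted p = 2e-04) in untreated db/db and 0.96 (adjusted p = 0.00056) in treated db/db against db/+ hearts. At A_51_P277373 the ratios differed from those of db/+ hearts by -0.53 in treated db/db and -0.01 in untreated db/db, and the heart channel alone by 1.22 in untreated (adjusted p = 0.00074) and 0.73 in treated db/db (adjusted p = 0.02), a change of sign. Under normexp the untreated differences were called at both probes, at 1.91 (A_52_P562704, adjusted p = 0.028) and 1.97 (A_51_P277373, adjusted p = 0.048). Without the 2 dim db/+ arrays they were 1 (adjusted p = 0.038) and 0.78 (adjusted p = 0.049).

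The heart signal at A_51_P277373, on the 75th-percentile log2 scale, averaged 1.27 ± 0.17 in treated db/db (SD, n = 4), 1.75 ± 0.16 in untreated db/db (n = 5) and 0.53 ± 0.39 in db/+ hearts (n = 5). The reference signal on the same arrays averaged -3.01 ± 0.23 in treated db/db, -3.06 ± 0.66 in untreated db/db and -4.29 ± 0.66 in db/+ samples. At this probe both channels were higher on the db/db than on the db/+ arrays, and the ratio of the 2 was not. Over all members, the heart channel alone called 4 probes higher in untreated db/db against db/+ hearts (background 6.79% of all probes), 0 in treated against untreated db/db (0.203%) and 8 when treated db/db were set against db/+ hearts (9.76%), while the reference channel alone called none of the 22 (limma, 0.00362%, 0.185% and 0.0181% of all probes, in that order of comparisons). With quantile scaling in place of the percentile, the heart channel called 4, 0 and 9 member probes (6.87%, 0.384% and 10.8% of all probes) and the reference channel none (0%, 0.323% and 0.0507%). The remaining tested Slc8a1 probes, A_52_P876218, A_52_P231461 and A_51_P191448, differed by 0.23, 0.56 and 0.38 in untreated db/db against db/+ hearts, all with intervals that include 0 and with a reference signal above background on 7, 2 and 1 of 15 arrays. A_52_P244931 was above background on no array.

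**Figure D3:**
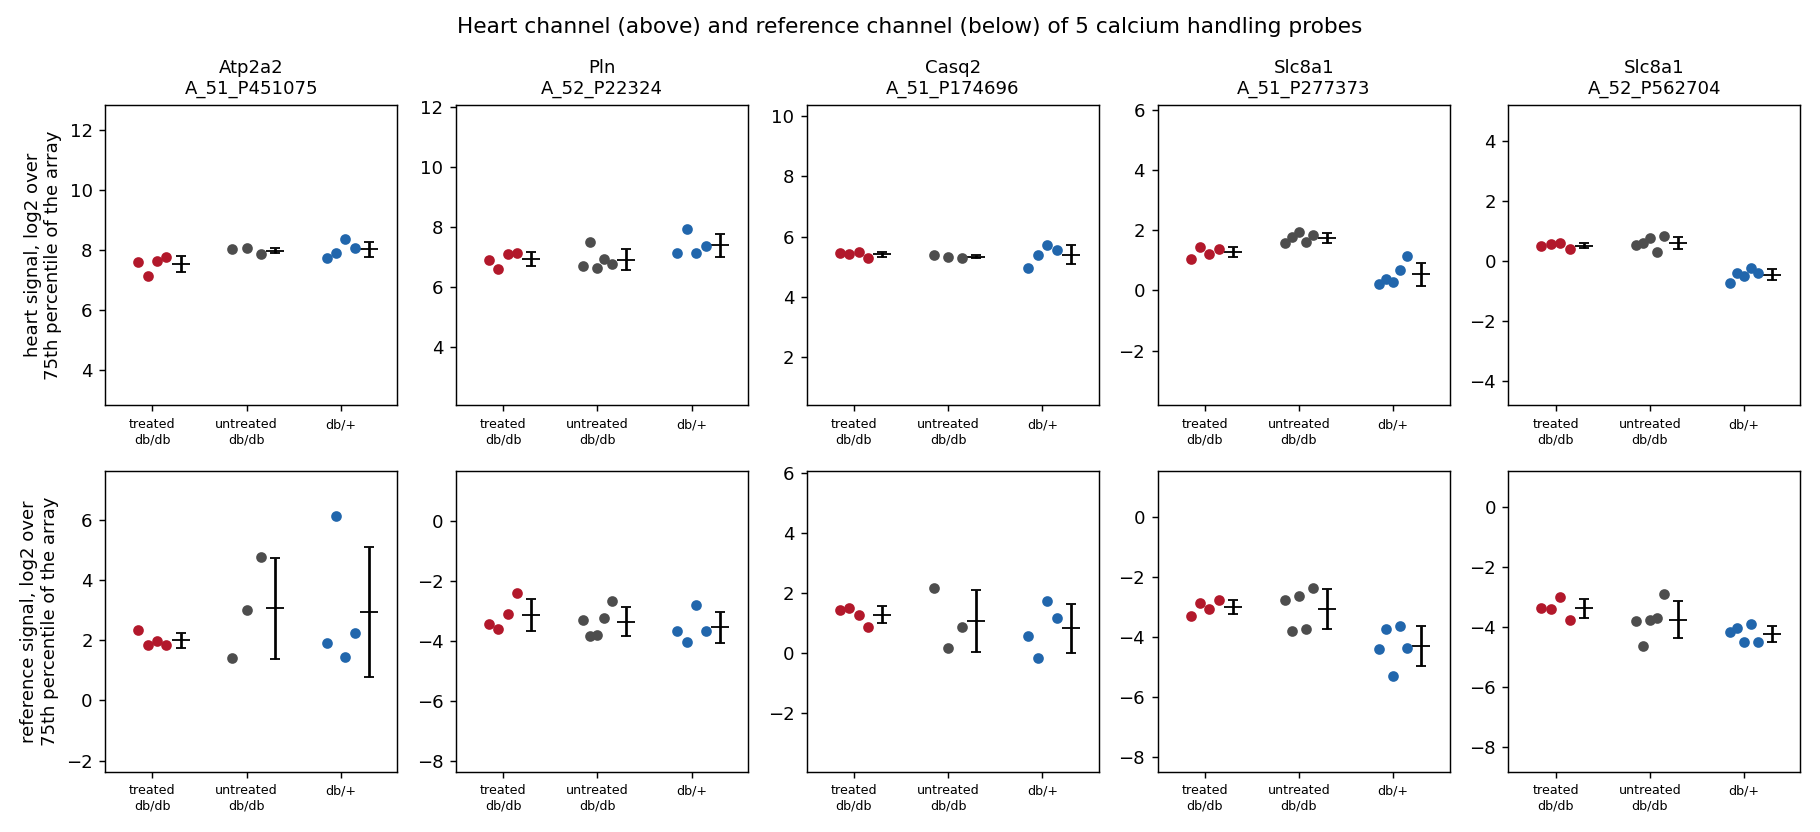
Heart signal (upper panels) and reference signal (lower panels), each as log2 over the array's 75th percentile, for 5 probes, 1 dot a sample, bars giving mean ± SD of the treated db/db, untreated db/db and db/+ groups. Every panel spans 10 log2 units. The reference signal of Slc8a1 A_51_P277373 averaged -3.01 in treated db/db, -3.06 in untreated db/db and -4.29 in db/+ arrays.

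Of 80 other calcium handling genes with 157 probes, 133 probes of 77 genes were tested. In untreated db/db against db/+ hearts, 2 probes were called higher and 0 lower (7.76% of all probes), in treated against untreated db/db hearts 0 (limma, 0%), and for treated db/db against db/+ hearts 4 were called higher and 1 lower (8.71%). Their median log2 differences were 0.03, 0.04 and 0.06 in that order of comparisons, close to those over all probes.

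Tmem38b, a potassium channel of the sarcoplasmic reticulum that balances charge during calcium release, had ratios of 1.58, 1.41, 1.37 and 1.49 in treated db/db, 0.75, 0.64, 1.21, 1.04 and 0.81 in untreated db/db, and -0.10, 0.47, 0.05, 0.18 and 0.24 in db/+ hearts. No 2 groups overlapped. Tmem38b was higher by 1.30 (SE 0.13, limma adjusted p = 0.00011) in treated db/db and by 0.72 (SE 0.13, adjusted p = 0.0045) in untreated db/db against db/+ hearts. Treated exceeded untreated db/db hearts by 0.57 (SE 0.13), which did not pass the test (adjusted p = 0.38). The differences from db/+ hearts were still called under normexp (1.22 for treated and 0.72 for untreated db/db). With slide as a fixed block they were not called (1.2, SE 0.34, adjusted p = 0.56, and 0.63, SE 0.26, adjusted p = 0.58). That block largely follows the groups, and the SEs without it were 0.13.

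Atp2b3, a calcium pump of the plasma membrane, had ratios of 4.46, 4.62, 4.32 and 4.14 in treated db/db, 3.39, 3.32, 4.16, 4.61 and 3.18 in untreated db/db, and 2.6, 2.09, 2.30, 2.71 and 2.63 in db/+ hearts. All db/db hearts lay above all db/+ hearts. The difference from db/+ hearts was 1.92 (SE 0.26, limma adjusted p = 0.00093) for treated and 1.27 (SE 0.25, adjusted p = 0.009) for untreated db/db hearts. Atp2b3 was called under normexp too (1.84 for treated and 1.2 for untreated db/db), but with slide as a fixed block it was not (1.64, adjusted p = 0.85, and 0.99, adjusted p = 0.68), and under normexp without the 2 dim db/+ arrays the untreated difference was uncalled (0.97, adjusted p = 0.08).

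Another 3 genes were called in treated db/db against db/+ hearts alone among the 3 comparisons, and the difference between comparisons was not tested. Camk2b, a calcium-dependent kinase subunit, was higher by 0.60 (SE 0.13, limma adjusted p = 0.013), and Cacng6, an accessory channel subunit, by 1.52 (SE 0.42, adjusted p = 0.041). Cacng6 was above background in 5 treated, 4 untreated and 1 db/+ hearts. Camk2a was lower, with a difference of -1.29 at A_51_P343218 (SE 0.33, adjusted p = 0.031), whereas its other probe A_52_P189707 gave 0.45 (SE 0.23, adjusted p = 0.23). None of these 3 calls held under normexp (1.4 for Camk2b, adjusted p = 0.051, 0.21 for Cacng6, adjusted p = 0.13, and -0.19 for Camk2a, adjusted p = 0.62) or with slide as a fixed block.

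None of the other genes was called in untreated db/db against db/+ hearts, and those with the smallest p in each role, up to 4, had these differences. Among channel subunits, Cacna2d1 differed by 0.38, Cacna1h by 0.39, Cacna1s by 0.19 and Cacnb2 by -0.49. Among partners of the ryanodine receptor, Asph (junctin) differed by -0.34, Bin1 by -0.24, Jph1 by 0.51 and Calr by -0.20. Among other pumps and exchangers, Slc8b1 of the mitochondrion differed by -0.36, Atp2b1 by -0.35, Atp2a3 by 0.27 and Atp2b2 by 0.54. Calmodulin and kinase genes gave -0.59 for Calm2, -0.24 for Camk2d and -0.58 for the calcineurin subunit Ppp3ca. Mitochondrial uptake genes gave 0.77 for the channel Mcu, 0.14 for Micu2 and 0.27 for Letm1. Inositol trisphosphate receptors and store-operated channels gave -0.24 for Orai3, 0.21 for Itpr2, -0.21 for Trpc1 and -0.18 for Itpr1. Genes of protein kinase A and phosphatase 1 gave 0.62 for Prkacb, -0.28 for Prkar1a, 1.22 for the phosphatase inhibitor Ppp1r1a and 0.35 for Prkaca. The only buffer tested, S100a4, gave 0.26. Adjusted p-values of these ran from 0.055 for Orai3 upward.

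**Figure D4:**
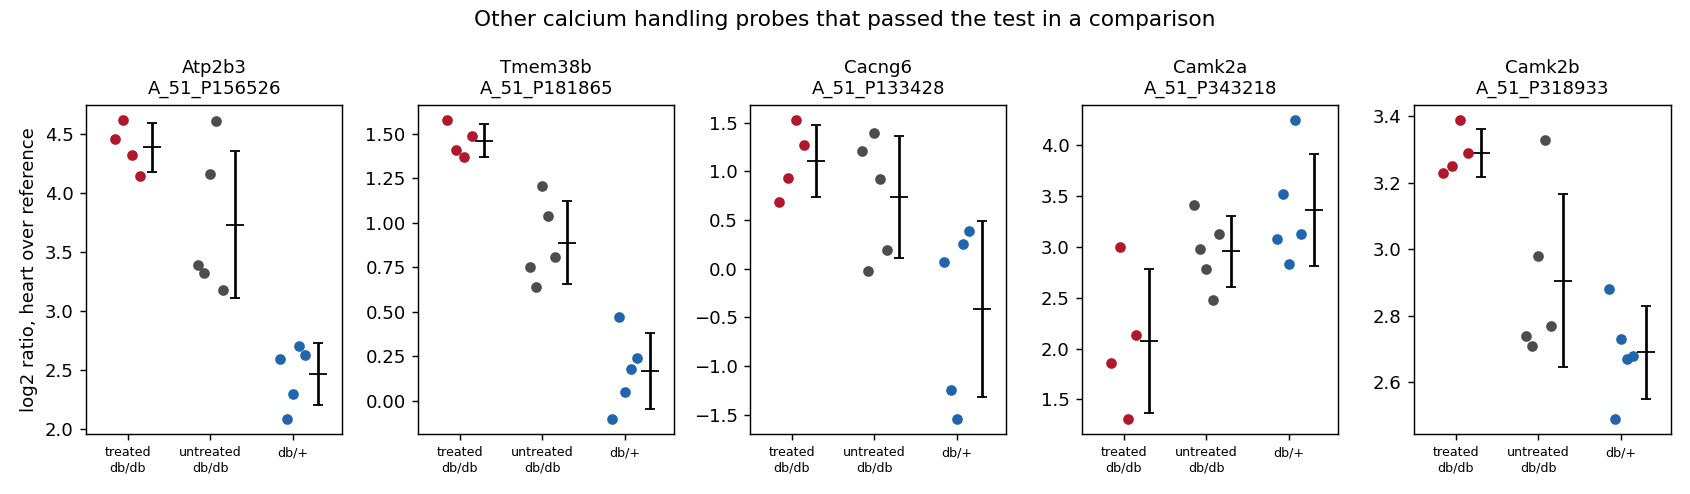
Log2 ratios of heart over reference (y axis, own scale in each panel) at the 5 probes of other calcium handling genes called in any comparison, 1 dot a sample, bars giving mean ± SD of treated db/db, untreated db/db and db/+ hearts. Tmem38b shows 3 separate groups, with treated db/db hearts at 1.37 to 1.58 and db/+ hearts at -0.10 to 0.47.

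Over the samples, the genes whose ratios followed each member's brightest probe most closely are given as Pearson correlations, with no test, since the samples share groups and slides. Atp2a2 A_51_P451075 was most like Fabp3, Lpl and Myh7 (r = 0.99 each) and Mb and Myh8 (0.98 each) over 11 samples. Casq2 was most like Hspb7 (0.99), Lrtm1, Ckm, Unc45b and Myh14 (0.98 each) over 11 samples. For the Atp2a2, Casq2, Pln, Ryr2 and Slc8a1 probes compared here the reference channel varied more than the heart channel. The ratios of all genes on an array share the reference channel. For Casq1 the kept spots had SDs of 0.26 (treated db/db), 0.77 (untreated db/db) and 0.41 (db/+) in the heart channel, against 0.25, 0.34 and 0.15 in the reference channel. Ryr2 A_52_P440709 was most like Fmo1 (0.97), Kdr (0.95), Rnaset2 (0.94), Pdlim5 and Usp13 (0.93 each), and Ryr3 A_52_P328350 like AK037544 (0.96), 1110020G09Rik (0.94), Zscan20, Dnaaf4 and Proser2 (0.93 each), both over 14 samples. Pln was most like Retnla (0.94), Ptprb and Thbs4 (0.93 each), AK084656 and Myot (0.92 each), and Casq1 like Ankrd2 (0.89), Dcdc2a (0.88), Slc35e1 (0.86), Larp4b (0.85) and 4930408O17Rik (0.84), over 13 samples each. Slc8a1 A_51_P277373 was most like Tmem51 (0.93), Fxyd6 (0.92), Ackr4 and Dusp27 (0.91 each) and P2rx5 (0.89) over 14 samples, and Ryr1 A_51_P256401 like Rad51d and Olfr1519 (0.90 each), Rhox3 and 9530080O11Rik (0.89 each) and Ndufb4 (0.88) over 11 samples.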

How the data were processed

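RNA of 15 hearts was hybridised to 15 mouse arrays of 45018 spots. Per the file headers, the authors extracted the deposited log10 ratios and signal intensities with Feature Extraction 9.5.1.1 (9.5.1 in the submitters' processing notes), with background subtraction and LOWESS dye normalization. The deposited series table held the same log10 ratios. These were turned into log2 ratios of heart over reference, and the spots of each of the 41174 probes were averaged after outlier-flagged spots were dropped. A probe was tested where the scanner software called its heart signal well above background on 4 or more of the 5 arrays of a group (27590 probes). The 3 groups were fitted together with limma 3.58.1 (R 4.3.3, 11 residual degrees of freedom) and p-values were adjusted by Benjamini-Hochberg over all tested probes. The number of arrays limits the precision. No member probe was saturated (0 of 29), and 0 per-sample columns were left unused. The study's own test was Significance Analysis of Microarrays. The limma script was tested on simulated data.

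"At least" folds set the brighter group's mean against the mean of, per array, the lowest signal well above background or the dim probe's own signal, whichever was higher, per channel after Aquantile normalization and without dye swaps. Named were all probes of the chosen genes, other calcium handling genes with a called probe and otherwise up to 4 per role with the smallest p in untreated db/db against db/+ hearts, and the 5 genes most alike to each member. Some genes this rule names are not reported here. The chosen genes were taken by the gene names of the scanner files. Other genes carry the current symbol where a probe's accession matched a current gene (23103 probes), and otherwise the scanner name. The genes, lists and alternatives were chosen with earlier results of these data known. Same-numbered replicates were not paired: their deviations correlated between -0.19 and 0.05.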

Additional observations from a re-analysis of the deposited data

Results flagged for a closer look

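Of 83 groups of 4 or 5 samples checked among the calcium handling probes, 6 held a sample that stood apart from the rest of its group, and chance alone flags about 1 in 20 groups. Ryr3 A_51_P519354 was 0.84 in treated db/db replicate 1 and 0 in the other treated samples. Ryr3 A_52_P109916 was -3.12 in untreated db/db replicate 2, against -1.8 to -1.3 in the other untreated hearts. Ryr3 A_52_P521605 was 0.27 in the mean of treated replicates 3 and 4, against 2.05 to 2.22 in the other treated samples. Atp2a2 A_52_P1156808 was 0.54 in treated replicate 2, against -0.09 to 0 in the others. The heart signal at this probe and at Ryr3 A_51_P519354 was above background on 0 treated arrays, so these ratios rest on signals not measured above background. A ratio of 0 there need not mean equal signals: treated replicate 1 at A_52_P1156808 was listed as 0 with signals of 11.76 (heart) and 10.24 (reference). Sln A_52_P413395 was 5.24 in db/+ replicate 4, against 1.85 to 2.39 in the other db/+ hearts. Slc8a1 A_52_P231461 was 2.14 in db/+ replicate 2, against 5.53 to 5.97 in the other db/+ hearts kept. The flagged values are log2 ratios of heart over reference. At Slc8a1 A_52_P231461 the log2 signals of each channel, scaled per array, were also compared. The heart signal of db/+ replicate 2 was -2.28, against -2.86 to -2.29 in the other db/+ hearts kept. Its reference signal was -4.42, against -8.4 to -8.14 on the same other arrays. At this probe the sample thus stood apart in the reference channel and not in the heart channel. The cause was not tested at any of the 6 probes. Of the 6 probes, Ryr3 A_52_P109916 and Slc8a1 A_52_P231461 were among those tested, and neither was called.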

How the results depend on the processing

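Over 31 settings and 3 comparisons, 1952 of 2013 repeated tests of the members gave the same call; 1810 were uncalled both ways, and 192 of those changed sign. The cause was not tested unless named. The difference at Ryr3 A_52_P328350 was called in 27 of 31 settings for untreated and 28 of 31 for treated db/db against db/+ hearts, that at A_52_P261858 in 19 and 21, that at Ryr1 A_51_P416074 in 26 of 30 and that at A_52_P391110 in 21 of 30. All these counts take an adjusted p that rounds to 0.05 as uncalled. Ryr1 A_52_P391110 with no filter was such a case. So was the treated difference at Ryr3 A_52_P261858 without treated replicate 2. Before rounding both were called.

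Member probes called higher in untreated db/db against db/+ hearts (2) became 1 with no filter on dim probes, 0 with slide as a fixed block, 1 with only the compared groups fitted, 4 under either scaling of the heart channel alone, 0 without 5 arrays with a bright reference channel, 1 without the 2 db/+ arrays with a dim heart channel, and 1 to 3 without each array in turn. Under normexp other probes were called, Ryr2 A_52_P440709 (1.89) and Slc8a1 A_52_P562704 (1.91) and A_51_P277373 (1.97), and neither Ryr3 probe. In treated db/db against db/+ hearts (4) they became 0 under normexp, 2 with a filter requiring signal on all arrays (which leaves the Ryr1 probes untested), 0 with the fixed slide block, 8 (75th percentile) and 9 (quantile) with the heart channel alone, 2 without the 5 arrays, 1 under normexp without the 2 dim arrays, and 1 to 4 without each array. With the replicate number as a block the counts were 1 and 2, the calls at Ryr3 A_52_P261858 being lost (0.64, adjusted p = 0.081; 0.71, adjusted p = 0.082) and that at Ryr1 A_52_P391110 (2.31, adjusted p = 0.061).

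With slide as a fixed block, differences from db/+ hearts at Ryr3 A_52_P328350 were 0.64 in untreated (adjusted p = 0.64) and 0.73 in treated db/db (adjusted p = 0.98), and at Ryr1 1.7 and 1.44. Treated and db/+ hearts shared no slide, and slides largely followed the groups, so calls lost with this block cannot decide whether a gene differs. As a random block, the within-slide correlation was -0.114.

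Reversed signs were -0.11 and 0 for Ryr3 A_52_P261858 and A_52_P328350 and 1.97 for Slc8a1 A_51_P277373 (untreated) and -0.04 for Ryr3 A_52_P261858 (treated) under normexp, 0.78 for Slc8a1 A_51_P277373 (untreated) under normexp without the 2 dim arrays, and, with the heart channel alone, 1.22 (untreated, both scalings), 0.73 and 0.74 (treated) for Slc8a1 A_51_P277373 and 1.05 for Ryr2 A_52_P10205 (treated, both scalings). Ratios under normexp correlated with the deposited ones at 0.67 and 0.62 on the arrays of db/+ replicates 1 and 3 and at 0.86 to 0.95 on the others.

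Other calcium handling probes called higher in untreated db/db (2) became 5 (normexp), 0 (fixed slide block), 7 (random slide block), 5 and 4 (heart channel alone, 75th percentile and quantile), 0 (without the 5 arrays), 1 (normexp without the 2 dim arrays) and 2 to 5 (each array left out); called lower (0) they became 3 (normexp), 1 (arrays scaled to 1 spread), 1 (no filter), 3 (stricter filter), 7 (random block), 1 (replicate block), 1 (treated replicates 3 and 4 apart), 1 and 1 (heart channel alone) and 0 to 3 (each array left out). In treated db/db, those higher (4) became 0 (fixed block), 13 (random block), 7 (replicates 3 and 4 apart), 9 and 11 (heart channel alone), 2 (normexp without the 2 dim arrays) and 3 to 6 (each array left out); those lower (1) became 0 (normexp, no filter, fixed block, replicate block, compared groups only, or without the 5 arrays), 2 (stricter filter, or without the 2 dim arrays), 6 (random block), 4 (replicates 3 and 4 apart) and 0 to 2 (each array left out). In treated against untreated db/db hearts the calls of members and of other calcium handling probes stayed at 0 under each array left out.

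The alternatives with the heart channel alone, flagged spots kept, and the 5 and the 2 arrays left out were chosen after seeing the data.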
